A study of Mus musculus with 2 samples.

Results

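The data concern 7 genes for CXC chemokines, Cxcl1, Cxcl2, Cxcl10, Cxcl12, Cxcl14, Cxcl16 and Pf4, in single lung cells of old mice. The genes were taken by name from a table of 15526 genes, in which 14 genes encode CXC ligands. The table held 1344 cells that had been sorted by flow cytometry for the red fluorescent protein mCherry. The cells came from p16-FDR mice on the C57BL/6 background aged 20 to 22 months, and all samples belong to 1 group of 2 samples. In these mice an FLP recombinase and a diphtheria toxin receptor fused to mCherry report on p16, the cell cycle inhibitor encoded by Cdkn2a that is widely used as a marker of senescent cells. No control group, no younger mice and no mCherry-negative cells were analysed here, so every comparison is between classes of reporter-positive cells. Cell names began with 1 of 2 library numbers, which could not be tied to the sample labels, and the table was therefore treated as 1 sample, with values per library given beside the results they touch.

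Chemokines are small secreted proteins that guide migrating cells through receptors on their surface. CXC chemokines have a single residue between their first pair of conserved cysteines. Cxcl1 and Cxcl2 act on Cxcr2 and attract neutrophils. Cxcl10 is induced by interferons and attracts activated T cells through Cxcr3. Cxcl12 retains and positions leukocytes through Cxcr4 and is also bound by the scavenging receptor Ackr3. Cxcl16 is made as a membrane-bound protein, can be shed by metalloproteases and is the ligand of Cxcr6. Cxcl14 is a constitutively made tissue chemokine, and Pf4 (platelet factor 4, also called Cxcl4) is known as a platelet granule protein. Several of these proteins are among the secreted factors described for senescent cells.

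Cxcl1, Cxcl2, Pf4 and Cxcl10 lie on chromosome 5, where Cxcl1 (plus strand, 90891241 to 90893115) and Cxcl2 (plus strand, 90903871 to 90905938) are neighbours with 10755 bases between them. Pf4 (plus strand, 90772435 to 90773383) lies 117857 bases from Cxcl1, and Cxcl10 (minus strand, 92346638 to 92348889) lies 1440699 bases from Cxcl2. Cxcl12 lies on the plus strand of chromosome 6 (117168535 to 117181367), Cxcl14 on the minus strand of chromosome 13 (56288643 to 56296551) and Cxcl16 on the minus strand of chromosome 11 (70453983 to 70459984). All 7 are protein-coding genes in the GENCODE annotation of GRCm38, release M21. Promoters were shown for 3 of these genes because Cxcl1, Cxcl2 and Cxcl10 were detected together in macrophages. The 210 bases from 250 to 41 bases before the RefSeq start (GRCm38.p6) were chr5:90890995-90891204 on the plus strand for Cxcl1, chr5:90903649-90903858 on the plus strand for Cxcl2 and chr5:92348930-92349139 on the minus strand for Cxcl10. They are printed 5′ to 3′ on the strand of the gene, and capitals mark matches on either strand to GGGNNTTTC, a short form of the NF-kappaB binding motif, or to GAAANNGAA, a short form of the interferon-stimulated response element.
Cxcl1: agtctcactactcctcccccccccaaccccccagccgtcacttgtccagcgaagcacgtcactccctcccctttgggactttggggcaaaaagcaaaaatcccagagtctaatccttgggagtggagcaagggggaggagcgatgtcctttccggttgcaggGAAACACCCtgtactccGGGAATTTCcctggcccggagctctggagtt
Cxcl2: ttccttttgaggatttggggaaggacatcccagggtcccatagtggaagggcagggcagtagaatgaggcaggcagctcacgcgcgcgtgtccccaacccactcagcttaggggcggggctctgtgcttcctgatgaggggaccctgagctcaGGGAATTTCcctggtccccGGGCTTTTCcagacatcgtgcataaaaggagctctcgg
Cxcl10: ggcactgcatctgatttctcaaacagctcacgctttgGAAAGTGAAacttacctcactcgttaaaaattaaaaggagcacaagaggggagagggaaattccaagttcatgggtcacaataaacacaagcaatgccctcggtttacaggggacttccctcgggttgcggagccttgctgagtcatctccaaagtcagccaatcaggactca

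Cxcl1 and Cxcl2 each held 2 matches to GGGNNTTTC in this window and no match to GAAANNGAA. At least 1 match to GGGNNTTTC was present in 1015 of 32851 mouse promoters searched over the same window (3.09%), and 2 or more were present in 23 of them. The letters of both motifs had been shortened by 1 base after the matches were seen, so such shares do not test how unusual the matches are. In Cxcl1 the matches lay 88 to 80 bases (on the minus strand) and 71 to 63 bases before the start. In Cxcl2 they lay 97 to 89 and 78 to 70 bases before the start. Cxcl10 held no match to GGGNNTTTC and 1 match to GAAANNGAA, 213 to 205 bases before the start, as did Cxcl14, 172 to 164 bases before it. That motif was present in 1981 of 32851 promoters (6.03%). No 2 matches overlapped, and neither pattern was found in the windows of Cxcl12 and Pf4. RefSeq promoters were matched for 6 of the 7 genes, all but Cxcl16. A match is a description of the letters and not a measured binding site. GGGNNTTTC covers only some forms of NF-kappaB site, so the lack of a match does not show that a site is absent. The Cxcl10 window holds gggaaattcc and ggggacttcc, which resemble such sites but lack the TTTC of the pattern.

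Values are counts of unique molecular identifiers (UMIs), each of which marks 1 captured transcript. Rates were computed per class as UMIs of the gene in all its cells for every 10000 UMIs of any gene. Parentheses give 95% intervals, exact Poisson for rates and Clopper-Pearson binomial for shares. A count of 0 is given with the limit of 3 counts, which bounds the share of cells with a UMI and not the share of cells that express the gene. Both intervals and limits cover counting error only, since cells of 1 sample are not replicates, and no p-value was computed. Library 1 held 1145 cells with a median of 5631 UMIs and library 2 held 199 cells with a median of 6716 UMIs. They shared 0 cell barcodes. Depth ranged from 2517 to 49467 UMIs per cell. Cells were grouped into 15 clusters with the chemokine genes, their receptors and mCherry left out of the clustering. Macrophages formed cluster 10, serous-cavity-macrophage-like (53 cells, led by Prg4 and Alox15), cluster 3, interstitial-macrophage-like (99 cells, led by Cd209f, F13a1 and Cd163 among others), and cluster 14, alveolar-macrophage-like (20 cells). Cluster 8 (76 cells) was led by Mmp12 and Tnip3, carried markers of several myeloid types and was left unnamed as Mmp12-high. Mmp12 was in 26.3% of its cells and H2-Ab1 in 93.4%, so the label describes the cluster and not each cell. Endothelial cells formed cluster 1 (408 cells) and cluster 11 (51 cells), both like the Car4-high capillary cells called aerocytes, and cluster 2, general-capillary-like (145 cells). Cluster 2 was led by Ptprb and Plvap of the general capillary marker list and then by Vwf of the venous list. Vwf was in 77.2% of its cells at 5.59 per 10000, against 0.0733 in the remaining cells, so the name describes the cluster and not each cell. Mesenchymal cells formed cluster 4, adventitial-fibroblast-like (97 cells), cluster 12, fibroblast-like (25 cells), and the unnamed Acta2-high cluster 5 (91 cells). Acta2 was in 36.3% of the cells of cluster 5, so this label too describes the cluster. The lymphoid clusters were T-cell-like (cluster 6, 88 cells), gamma-delta-T-like (cluster 9, 68 cells), B-cell-like (cluster 7, 82 cells) and plasma-cell-like (cluster 13, 24 cells). Cluster 15 was an Scgb1a1-high group of 17 cells, below the 20 cells set for ranking a class. Of the 53 cells of cluster 10, 52 came from library 1, as did 96 of 97 cells of cluster 4 and 90 of 91 cells of cluster 5.

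Each of the 7 genes had its own order of source cells. Cxcl1 and Cxcl2 were highest in serous-cavity-macrophage-like cells, Pf4 in interstitial-macrophage-like cells, Cxcl12 in general-capillary-like cells and Cxcl14 in fibroblast-like cells. Cxcl10 and Cxcl16 were highest in the Mmp12-high cluster, by small margins over other classes. A gene was counted as set apart when its rate in the highest class was at least 2 times that in the next class. This held for 4 of the 7 genes (Cxcl2, Cxcl12, Cxcl14 and Pf4), against 13.3% of 12702 genes detected in at least 1% of cells. Among the 2052 genes whose summed UMIs lay between those of the lowest and the highest of the 7, the share was 7.6%. The ratio of the highest to the next class was 3.24 for Pf4 (3.01 to 3.48), 2.57 for Cxcl14 (2.20 to 3.0), 2.13 for Cxcl2 (2.01 to 2.27) and 2.00 for Cxcl12 (1.77 to 2.27), so Cxcl12 stood at the limit. It was 1.88 for Cxcl1 (1.58 to 2.25), 1.35 for Cxcl16 (1.13 to 1.63) and 1.20 for Cxcl10 (0.966 to 1.5). Without the 45 cells that had markers of several lineages, 2 of the 7 (Cxcl14 and Pf4) remained set apart. At a limit of 3 times, 1 of the 7 (Pf4) was set apart, against 6.35% of these genes. The plot of rates by class shows all 7 genes over the 15 clusters.

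**Figure D1:**
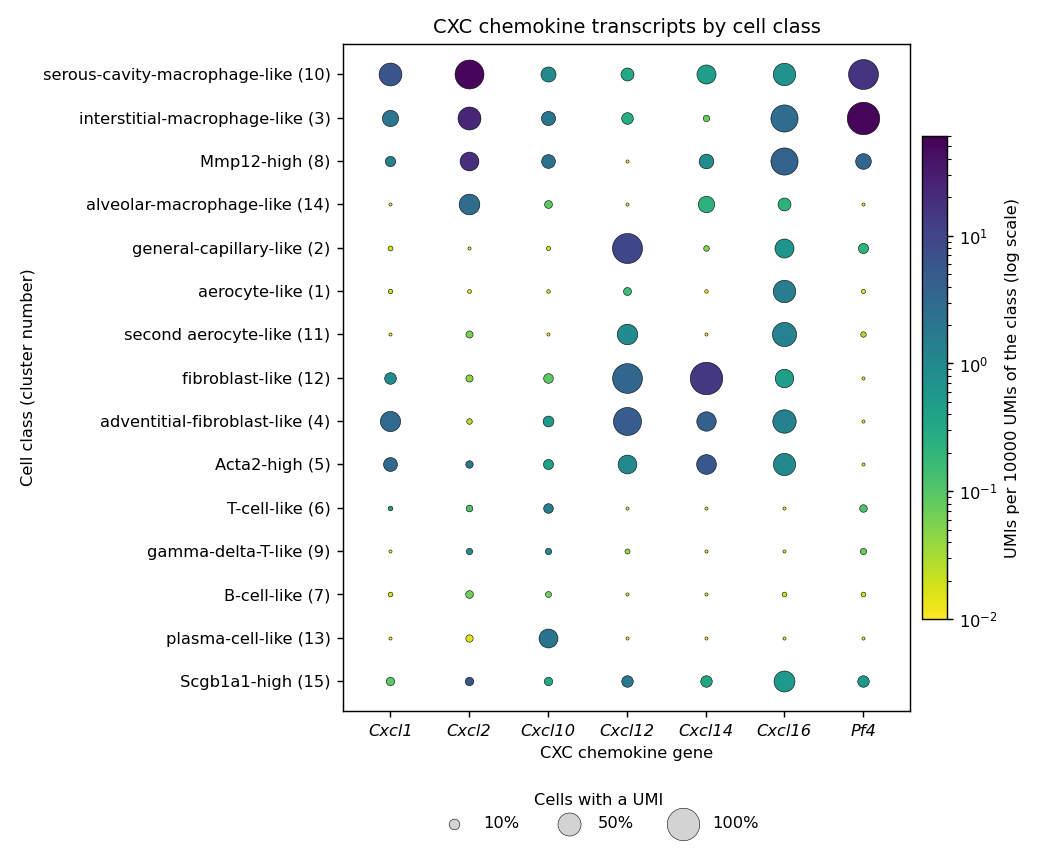
UMI rate (colour, UMIs per 10000 UMIs of the class, log scale) and share of cells with a UMI (dot area) of 7 CXC chemokine genes (columns) in 15 clusters (rows). Cxcl2 at 50.9 per 10000 in cluster 10 and Pf4 at 52.7 in cluster 3 are the darkest dots, and the lymphoid clusters 6, 9, 7 and 13 hold mostly small pale dots, with Cxcl10 as the exception.

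Among the ligands of Cxcr2, Cxcl2 was concentrated in serous-cavity- and interstitial-macrophage-like cells and in the Mmp12-high cluster. In serous-cavity-macrophage-like cells 42 of 53 cells had Cxcl2 (79.2%, 65.9 to 89.2%) at 50.9 per 10000 (49.1 to 52.7). In interstitial-macrophage-like cells 49 of 99 had it (49.5%, 39.3 to 59.7%) at 23.9 (22.7 to 25.1), and in the Mmp12-high cluster 25 of 76 (32.9%, 22.5 to 44.6%) at 18.6 (17.6 to 19.6). Clusters 3, 8 and 10 together held 17.0% of all cells and 92.7% of the 6494 Cxcl2 UMIs. Alveolar-macrophage-like cells were lower, with 8 of 20 cells and 2.90 per 10000 (2.23 to 3.70). None of the 145 general-capillary-like cells had a UMI (limit on cells with a UMI 2.07%), and B-cell-like cells had 4 UMIs in 4 of 82 cells (4.88%) at a median depth of 6553 UMIs, against 10754 in cluster 10 and 6736 in cluster 3. Drawing 2500 UMIs from each cell left expected shares of 69.1% in cluster 10, 46.6% in cluster 3 and 2.27% in B-cell-like cells.

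Cxcl2 was not evenly spread within these classes. In interstitial-macrophage-like cells 50 of 99 cells had 0 UMIs while 38 had 10 or more, and the highest cell had 144. In serous-cavity-macrophage-like cells 11 of 53 cells had 0 UMIs, 32 had 10 or more and 12 had 100 or more, up to 344. The median of positive cells was 23 UMIs in interstitial-macrophage-like cells and 50.5 in serous-cavity-macrophage-like cells. In the Mmp12-high cluster the rate was 13.8 without the 1 cell of 368 UMIs, with library 1 at 13.9 (13 to 14.9) and library 2, which held 11 of its cells, at 41.8 (38.3 to 45.5). In interstitial-macrophage-like cells the libraries had the opposite order, library 1 being at 26.1 (24.8 to 27.5) and library 2 at 14.2 (12.2 to 16.4). The 264 Cxcl2 UMIs of cluster 15 came from 1 cell, and 95 of the 104 UMIs of cluster 5 came from 1 cell.

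Cxcl1 was found in macrophage-like cells, as Cxcl2 was, and also in mesenchymal cells. Serous-cavity-macrophage-like cells had Cxcl1 in 26 of 53 cells (49.1%, 35.1 to 63.2%) at 6.09 per 10000 (5.47 to 6.75). Adventitial-fibroblast-like cells had it in 37 of 97 (38.1%, 28.5 to 48.6%) at 3.05 (2.66 to 3.48), and interstitial-macrophage-like cells in 24 of 99 (24.2%, 16.2 to 33.9%) at 2.02 (1.70 to 2.39). The Acta2-high cluster ranked second, at 3.23, but 1 cell held 155 of its 196 UMIs and the rate without it was 0.689 (0.494 to 0.934). Likewise the Mmp12-high cluster was at 1.38 with, and 0.471 without, its cell of 69 UMIs. In library 1 that cluster was at 0.160 with 4 of 65 cells, and in library 2 it was at 7.47 with 3 of 11 cells. The 3 mesenchymal clusters 4, 5 and 12 together had Cxcl1 in 56 of 213 cells and Cxcl2 in 7 of 213. Cxcl1 was nearly absent from the endothelial clusters, with 6 UMIs in 6 of 604 cells at a median depth of 5240.5, and from B-cell-like cells, with 1 UMI. Over the 15 clusters the rate of Cxcl1 was most like that of Ptgs2, the inducible cyclooxygenase of prostaglandin synthesis (Pearson r 0.93 of log2 rates), and then those of Pid1 (0.90) and Pdlim4 (0.90). Cxcl2 was most like Lpcat2 (0.93), the lipopolysaccharide co-receptor gene Cd14 (0.92) and the complement gene C1qb (0.92). These correlations describe 15 clusters of 1 sample. Here and for the other genes below, the most similar genes were sought among genes with UMIs in at least 5% of cells.

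**Figure D2:**
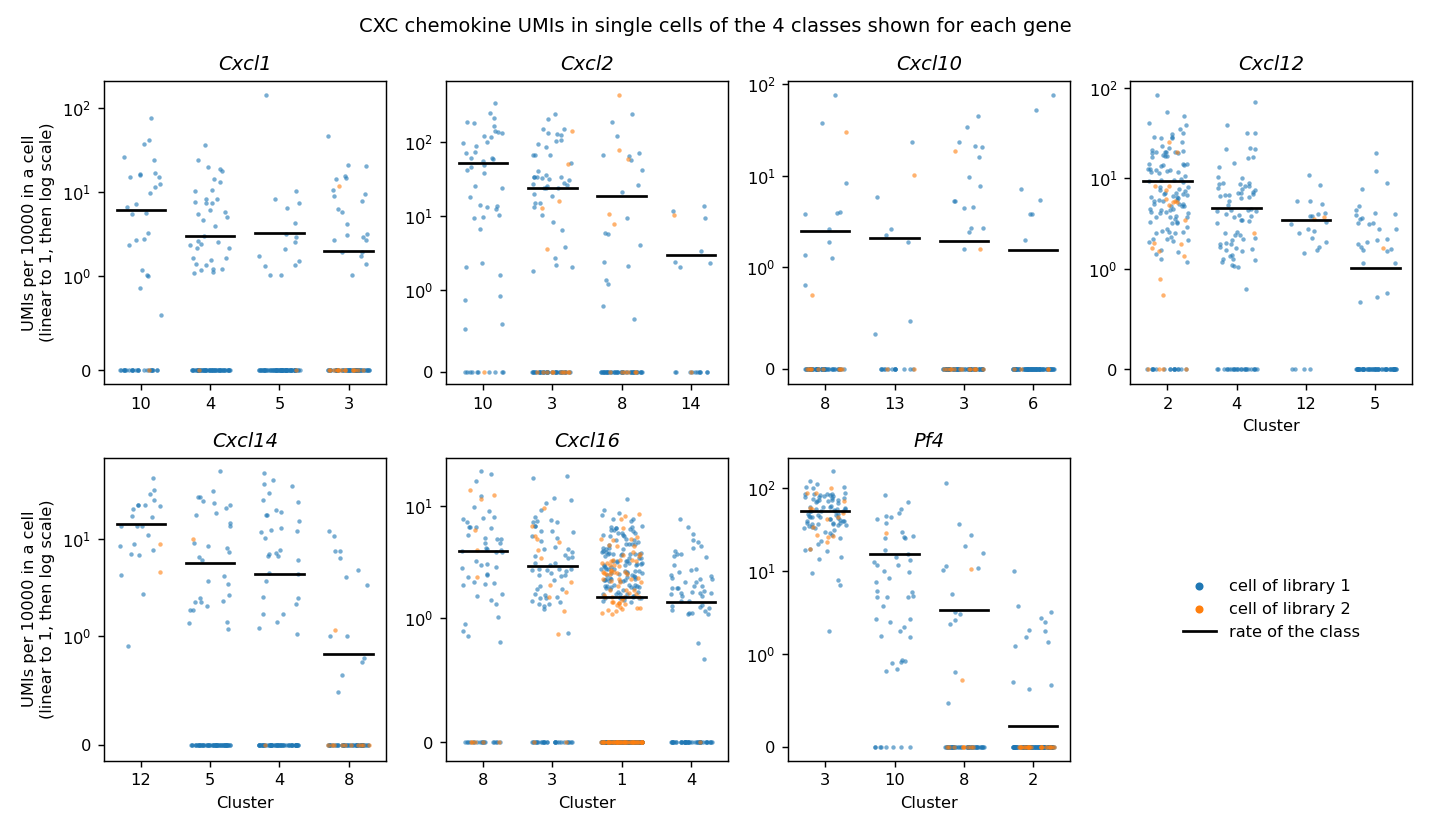
UMIs per 10000 UMIs in single cells (vertical axis, linear up to 1 and on a log scale above) of each of the 7 genes in 4 clusters (horizontal axis), with cells of library 1 in blue, cells of library 2 in orange and the rate of the class as a black line. Pf4 has no cell at 0 in cluster 3 and Cxcl14 none in cluster 12, while Cxcl2 in cluster 3 divides into 50 cells at 0 and a cloud of positive cells, and the Cxcl1 line of cluster 5 is set by 1 cell.

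Within serous-cavity- and interstitial-macrophage-like cells, those with Cxcl1 more often also had Cxcl2. In serous-cavity-macrophage-like cells Cxcl2 was present in 25 of 26 cells with Cxcl1 (96.2%, 80.4 to 99.9%) and in 17 of 27 cells without it (63.0%, 42.4 to 80.6%). Median depths were 10666 and 10778 UMIs. In interstitial-macrophage-like cells it was present in 20 of 24 cells with Cxcl1 (83.3%, 62.6 to 95.3%) and in 29 of 75 without (38.7%, 27.6 to 50.6%), at depths of 6418 and 6951. The intervals overlapped slightly in the first class and did not overlap in the second. At 2500 UMIs per cell the expected shares were 97.8% and 52.4% in cluster 10 and 89.6% and 36.8% in cluster 3. Cxcl10 was also more frequent in these cells. In interstitial-macrophage-like cells it was present in 15 of 49 cells with Cxcl2 (30.6%, 18.3 to 45.4%) and in 3 of 50 without (6.00%, 1.25 to 16.5%), and in 9 of 24 cells with Cxcl1 (37.5%, 18.8 to 59.4%) and 9 of 75 without (12%, 5.64 to 21.6%). In serous-cavity-macrophage-like cells it was present in 9 of 26 cells with Cxcl1 (34.6%, 17.2 to 55.7%) and 2 of 27 without (7.41%, 0.910 to 24.3%). All 11 cells with Cxcl10 there also had Cxcl2, which was in 42 of the 53 cells. Cxcl10 was in 11 of 42 cells with Cxcl2 (26.2%, 13.9 to 42.0%) and in 0 of 11 without (0 to 28.5%). In the Mmp12-high cluster it was in 6 of 25 cells with Cxcl2 (24%, 9.36 to 45.1%) and 7 of 51 without (13.7%, 5.70 to 26.3%). Of these Cxcl10 comparisons, the intervals did not overlap only for that by Cxcl2 in cluster 3. Pf4 was not more frequent with Cxcl1 in cluster 10, where it was present in 22 of 26 cells with Cxcl1 (84.6%, 65.1 to 95.6%) and 23 of 27 without (85.2%, 66.3 to 95.8%). Of 21 pairs of genes, those in which both genes had UMIs in at least 10 cells of a cluster were compared.

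**Figure D3:**
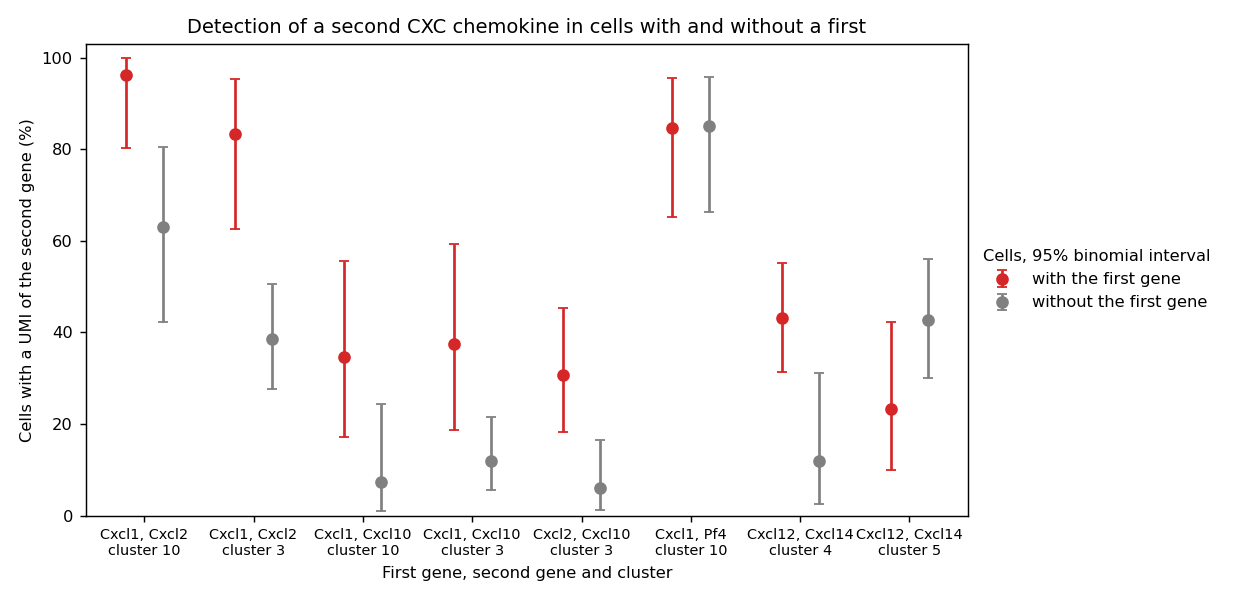
Share of cells with a UMI of a second gene (vertical axis, percent, with 95% binomial intervals) among cells with (red) and without (grey) a UMI of a first gene, for 8 combinations of a gene pair and a cluster (horizontal axis). The red point lies above the grey one for Cxcl1 with Cxcl2 and with Cxcl10, nearly level with it for Cxcl1 with Pf4, and on opposite sides for Cxcl12 with Cxcl14 in clusters 4 and 5.

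Targets of the transcription factor NF-kappaB include negative feedback genes and inflammatory cytokines. A list of 20 such genes was compared between the 3 clusters with most Cxcl2 and all remaining cells. At least 2-fold higher were 11 of 20 in serous-cavity-macrophage-like cells (7.03% of all genes tested), 11 of 20 in the Mmp12-high cluster (8.42%) and 9 of 20 in interstitial-macrophage-like cells (10.8%). At least 2-fold lower were none in the first cluster (40.5%), 1 in the second (Il6, 43.1%) and 2 in the third (Icam1 and Il6, 30.4%). The interleukin gene Il6 was at 1.53 per 10000 (1.23 to 1.88) in cluster 10, against 0.0973 (0.0781 to 0.120) in the remaining cells, and Il1b was at 12.9 (12.1 to 13.8) in cluster 8, against 0.415 (0.374 to 0.459). Within cluster 8 Il1b was at 7.06 in the cells of library 1 and at 42.1 in the 11 cells of library 2. Nfkbiz, an inhibitor-like regulator of NF-kappaB, was at 5.49 (4.95 to 6.07) in cluster 3, against 0.917 (0.855 to 0.981). The median log2 ratio of the list was 0.94 in cluster 10, 1.31 in cluster 8 and 0.76 in cluster 3, beside -0.34, -0.37 and -0.19 over all genes tested.

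Cells with Cxcl2 were then set against cells without it in the same class, over genes detected in at least 5% of its cells. In serous-cavity-macrophage-like cells 17 of 20 genes of the NF-kappaB list were at least 2-fold higher in the 42 cells with Cxcl2 than in the 11 cells without (17.6% of all genes tested). In interstitial-macrophage-like cells 13 of 19 were (8.73% of all genes tested), and in the Mmp12-high cluster 10 of 20 (14.5%). None of the list was at least 2-fold lower in these 3 comparisons, against 15.4% of all genes tested in cluster 10, 12.4% in cluster 3 and 16.9% in cluster 8. Nfkbia, which encodes the inhibitor that retains NF-kappaB in the cytoplasm, was at 23.1 per 10000 (21.7 to 24.5) with and 4.42 (3.35 to 5.73) without Cxcl2 in cluster 10, and at 26.1 (24.4 to 27.9) with and 6.34 (5.54 to 7.23) without it in cluster 3. In cluster 8 it was at 29.9 (27.7 to 32.2) with and 15.4 (14.3 to 16.5) without Cxcl2, a ratio of 1.94. Tnfaip3, which encodes the feedback inhibitor A20, was at 4.79 (4.07 to 5.60) and 0.967 (0.670 to 1.35) in cluster 3. The cytokine gene Tnf was at 2.02 (1.56 to 2.56) and 0.284 (0.136 to 0.523) there. Median depths of cells with and without Cxcl2 were 10539.5 and 10908 UMIs in cluster 10, 6521 and 6987 in cluster 3, and 7734 and 10141 in cluster 8. Immediate early and heat shock genes, which handling of cells can induce, were in part higher in the same cells. Of 10 such genes, 5 were at least 2-fold higher with Cxcl2 in cluster 10, 3 in cluster 3 and 5 in cluster 8. Atf3 was at 6.44 with and 1.55 without Cxcl2 in cluster 10 and at 21.2 and 9.84 in cluster 3, while Fos was at 7.90 and 5.43 in cluster 10 and at 32.2 and 25.5 in cluster 3. In cluster 8 Atf3 was at 20.0 and 5.76 and Fos at 17.4 and 9.37. There the median log2 ratio was 0.963 for these 10 genes and 0.960 for the NF-kappaB list. These medians were 0.807 and 1.91 in cluster 10 and 0.393 and 1.35 in cluster 3. The part of the immediate early and heat shock genes in the Cxcl2 values was not tested.

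**Figure D4:**
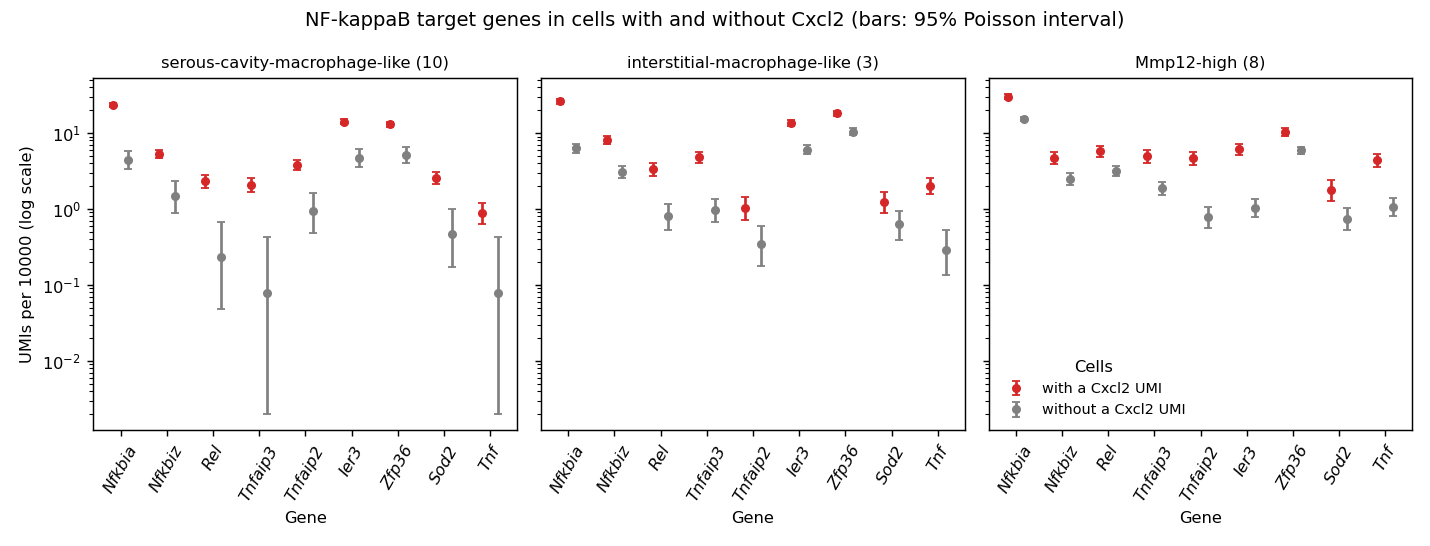
Rates of 9 NF-kappaB target genes (vertical axis, UMIs per 10000, log scale, with 95% Poisson intervals) in cells with (red) and without (grey) a Cxcl2 UMI, in clusters 10, 3 and 8. The 9 genes were picked from the list of 20. All 9 have their red point above the grey one in each of the 3 panels, as for Nfkbia at 23.1 and 4.42 in cluster 10. Among genes not plotted, Nfkb2 in cluster 10 (0.218 with and 0.233 without Cxcl2) and Il6 in cluster 8 (0.0433 and 0.0768) were lower with Cxcl2.

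Pf4 was present in every interstitial-macrophage-like cell. All 99 cells had UMIs (96.3 to 100%), with a median of 34, a lowest value of 1 and a highest of 95, and 93 of them had 10 or more. The rate was 52.7 per 10000 (51.0 to 54.4), and the libraries were close, library 1 at 53.1 (51.2 to 55.1) and library 2 at 50.8 (46.9 to 54.8). Serous-cavity-macrophage-like cells had Pf4 in 45 of 53 cells (84.9%, 72.4 to 93.3%) at 16.3 (15.3 to 17.3), and the Mmp12-high cluster in 17 of 76 (22.4%, 13.6 to 33.4%) at 3.44 (3.04 to 3.89), or 1.95 without 1 cell of 114 UMIs. In that cluster library 1 was at 3.98 (3.50 to 4.50) and library 2 at 0.795 (0.381 to 1.46). These 3 clusters held 98.7% of the 4879 Pf4 UMIs. No UMI was seen in the 20 alveolar-macrophage-like cells (limit on cells with a UMI 15%) or in the 213 cells of the 3 mesenchymal clusters (limit 1.41%). T-cell-like cells, at a lower median depth of 3523.5 UMIs, had 4 UMIs in 4 of 88 cells, and B-cell-like cells had 1 UMI.

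Platelet transcripts were sparse in the interstitial-macrophage-like cells, all of which had Pf4. Of 11 platelet markers 6 were in the table, and in interstitial-macrophage-like cells they summed to 4 UMIs, in 4 of 99 cells, with Itga2b, Gp9 and Gp5 at 0. The rate of the list was 0.0585 per 10000 there and 0.0680 in serous-cavity-macrophage-like cells. It was higher in the Mmp12-high cluster, at 0.279 with 21 UMIs, where 2 of the 17 cells with Pf4 also had Ppbp, and in the general-capillary-like cluster, at 0.349 with 40 UMIs. It was highest in alveolar-macrophage-like cells, at 0.679 with 15 UMIs, where 8 of 20 cells had a marker and no cell had Pf4. Of the adventitial-fibroblast-like cells, also without Pf4, 10 of 97 had a marker. In the general-capillary-like cluster Pf4 had 26 UMIs in 13 of 145 cells, of which 8 also had a platelet marker, while 10 of the 132 cells without Pf4 had one. Ppbp, which encodes another platelet chemokine, was in 5 of those 13 cells and in 2 of the 132. None of the 13 cells was among the 45 cells with markers of several lineages, a count for which platelet markers were not used. Over the 15 clusters the rate of Pf4 was most like those of Cxcl13, which encodes the B cell attractant that binds Cxcr5 (r 0.96), the complement receptor gene C3ar1 (0.95) and the complement gene C1qc (0.94).

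Cxcl10 was rare and came from few cells of many classes. It was detected in 85 of 1344 cells (6.32%, 5.08 to 7.76%), and the 10 cells with most UMIs held 54.1% of its 697 UMIs. The Mmp12-high cluster was at 2.51 per 10000 (2.17 to 2.90) with 13 of 76 cells, but at 0.964 (0.753 to 1.22) without 1 cell of 118 UMIs. Plasma-cell-like cells were at 2.09 (1.77 to 2.45) with 8 of 24 cells and at 1.13 without 1 cell of 71 UMIs. Interstitial-macrophage-like cells were at 1.95 (1.63 to 2.31) with 18 of 99 cells and at 1.57 (1.28 to 1.90) without their highest cell, which made them the highest class when 1 cell was left out of each. T-cell-like cells were at 1.55 (1.16 to 2.03) with 7 of 88 cells, or 0.913 without 1 cell. By contrast, 2 of 604 endothelial cells had Cxcl10. Of a list of 16 interferon-induced genes, 14 were tested. The list was set against the remaining cells in clusters 8, 3, 10 and 2, and not in the plasma-cell-like or T-cell-like clusters. In the Mmp12-high cluster 1 of 14 was at least 2-fold higher (8.42% of all genes tested) and 6 were at least 2-fold lower (43.1%), both near the shares over all genes. In interstitial-macrophage-like cells 0 of 14 were higher (10.8%) and 9 lower (30.4%), and in serous-cavity-macrophage-like cells 3 were higher (7.03%) and 6 lower (40.5%). Isg15 was among the higher genes in clusters 8 and 10, at 2.71 and 2.58 per 10000, but at 0.489 and 0.173 without 1 cell of each. General-capillary-like cells, with 2 Cxcl10 UMIs, had 7 of 14 higher (12.5%) and none lower (20.7%), among them the guanylate-binding protein genes Gbp4, at 0.689 (0.545 to 0.859) against 0.156 (0.131 to 0.185), and Gbp2, at 0.855 (0.694 to 1.04) against 0.226 (0.195 to 0.260). The receptor gene Cxcr3 was highest in T-cell-like cells, with 29 of 88 cells at 1.31 per 10000 (0.959 to 1.76), followed by gamma-delta-T-like cells at 0.489 (0.260 to 0.836). Across clusters Cxcl10 was most like Fgl2 (r 0.84), Rgs10 (0.73) and Evi2a (0.72).

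Cxcl12 separated the capillary-like clusters from each other. In general-capillary-like cells 124 of 145 cells had Cxcl12 (85.5%, 78.7 to 90.8%) at 9.46 per 10000 (8.91 to 10.0), with a median of 5 UMIs in positive cells. Aerocyte-like cells of cluster 1 had it in 21 of 408 cells (5.15%, 3.21 to 7.76%) at 0.154 (0.106 to 0.218), and cluster 11 was intermediate with 20 of 51 cells at 0.919 (0.629 to 1.30). Without 1 cell of 159 UMIs the general-capillary-like rate was 8.21 (7.69 to 8.76), and it was then less than 2 times the next class. Library 1 gave 10.6 (9.94 to 11.3) and library 2 gave 4.39 (3.53 to 5.39), where 18 of 22 cells had UMIs, whereas cluster 1 had 0.158 and 0.148 in these libraries. Mesenchymal cells were the second source. Adventitial-fibroblast-like cells were at 4.73 (4.24 to 5.25) with 72 of 97 cells, fibroblast-like cells at 3.43 (2.70 to 4.30) with 21 of 25, and Acta2-high cells at 1.01 (0.770 to 1.29) with 30 of 91. Clusters 6, 7, 8, 13 and 14 had 0 UMIs, with limits on cells with a UMI of 3.66% for the 82 B-cell-like cells and 3.95% for the 76 Mmp12-high cells. Interstitial- and serous-cavity-macrophage-like cells had 19 UMIs each, beside 5.05 and 3.03 UMIs per 10000 summed over 12 pan-endothelial markers, which reached 220 per 10000 in the general-capillary-like cluster.

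Within the general-capillary-like cluster, Cxcl12 was higher in cells with more arterial markers, of which 143 of the 145 cells had at least 1. A list of 9 arterial markers holds Gja4, a connexin gene, and Sox17, a transcription factor gene. Both were leading genes of the whole cluster, in 73.1% and 70.3% of its cells, while Dkk2 of the same list had no UMI there. By share of markers detected from the general capillary, arterial and venous lists, 138 of the 145 cells were nearest to the general capillary list and 6 to the venous list. Vwf of the venous list was in 108 of those 138 cells. The aerocyte list was not a choice, so the split does not set the capillary types apart. Its summed rate in the cluster was 79.0 per 10000, beside 78.4 for the general capillary list, against 199 and 8.33 in cluster 1. UMIs of 3 to 9 of the arterial markers were present in 80 cells. Of these, 72 had Cxcl12 (90%, 81.2 to 95.6%) at 12.3 per 10000 (11.5 to 13.2), against 51 of 63 cells with 1 or 2 markers (81.0%, 69.1 to 89.8%) at 5.29 (4.64 to 5.99). Without the highest cell of each set the rates were 10.2 (9.49 to 11) and 4.83 (4.21 to 5.52), and median depths were 7153.5 and 7347 UMIs. The other 2 cells had no arterial marker and together had 7 Cxcl12 UMIs, all in 1 cell (8.68 per 10000, 3.49 to 17.9). The intervals did not overlap in library 1, at 14.3 (13.3 to 15.3) and 5.57 (4.85 to 6.36), but in library 2 the intervals overlapped, at 4.75 (3.68 to 6.03) with 16 cells and 3.62 (2.32 to 5.38) with 6 cells. Genes most like Cxcl12 across the clusters were Sox4 (r 0.94), the junction gene Jam2 (0.93) and Arhgef5 (0.92).

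Of the receptors of Cxcl12, Cxcr4 was highest outside its main sources and Ackr3 was found within them. Cxcr4, the signalling receptor, was highest in interstitial-macrophage-like cells at 1.17 per 10000 (0.928 to 1.46) and the Mmp12-high cluster at 1.08 (0.855 to 1.34), and lay between 0.614 and 0.790 in the T-cell-like, B-cell-like and gamma-delta-T-like clusters. It was at 0.113 (0.0604 to 0.194) in general-capillary-like cells. Ackr3, the scavenging receptor, was instead found in adventitial-fibroblast-like cells, with 32 of 97 cells at 0.954 (0.743 to 1.20), and in general-capillary-like cells, with 39 of 145 at 0.558 (0.430 to 0.713), against 0.132 (0.108 to 0.158) outside that cluster. Of 8 CXC or related receptors tested, general-capillary-like cells had 2 at least 2-fold higher than the remaining cells, Ackr3 and Ackr4 (12.5% of all genes tested), and 5 at least 2-fold lower (20.7%). Dpp4, which encodes a peptidase that trims Cxcl12, was at 1.25 (1.05 to 1.47), against 0.605 (0.554 to 0.660). It was the 1 gene at least 2-fold higher of 6 tested for shedding and cleavage of CXC ligands (12.5% of all genes tested), and 3 were at least 2-fold lower (20.7%). The NF-kappaB list was mostly low in this cluster, with 1 of 20 genes higher (12.5% of all genes tested) and 12 lower (20.7%).

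Cxcl14 marked mesenchymal cells. All 25 fibroblast-like cells had it, from 1 to 29 UMIs with a median of 12, at 14.4 per 10000 (12.9 to 16.1). Acta2-high cells followed with 33 of 91 cells at 5.63 (5.04 to 6.26), or 4.17 without 1 cell of 96 UMIs, and adventitial-fibroblast-like cells with 34 of 97 at 4.37 (3.91 to 4.88). These 3 clusters held 15.8% of all cells and 88.9% of the 1100 Cxcl14 UMIs. The lymphoid clusters had 0 UMIs in 262 cells at a median depth of 4415.5 UMIs (limit on cells with a UMI 1.15%), and the endothelial clusters had 7 UMIs in 4 of 604 cells. A lower level was seen in some myeloid cells, with 15 of 76 Mmp12-high cells at 0.838 (0.644 to 1.07) and 18 of 53 serous-cavity-macrophage-like cells at 0.459 (0.303 to 0.668), against 3 of 99 interstitial-macrophage-like cells at 0.0732. Summed fibroblast markers were at 0.851 per 10000 in the Mmp12-high cluster, with 10 of 12 detected, and at 0.0510 in the serous-cavity-macrophage-like cluster, with 10 of 12 at 0. In fibroblast-like cells they were at 171.

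Cxcl14 and Cxcl12 were related differently in the mesenchymal clusters. In adventitial-fibroblast-like cells Cxcl14 was present in 31 of 72 cells with Cxcl12 (43.1%, 31.4 to 55.3%) and 3 of 25 without (12%, 2.55 to 31.2%), at depths of 6561 and 8002 UMIs. In Acta2-high cells it was present in 7 of 30 cells with Cxcl12 (23.3%, 9.93 to 42.3%) and 26 of 61 without (42.6%, 30.04 to 55.9%), at depths of 6041.5 and 6020. The intervals overlapped in the second cluster and did not overlap in the first, by a narrow margin. Heparan sulfate proteoglycans, which hold chemokines at the cell surface and in the matrix, included 4 of 10 genes at least 2-fold higher in fibroblast-like cells than in the remaining cells (15.7% of all genes tested) and 5 lower (32.4%). Gpc3, a glypican gene, was at 4.02 (3.23 to 4.96), against 0.520 (0.475 to 0.568), and Sdc2, a syndecan gene, at 2.33 (1.74 to 3.07), against 0.348 (0.311 to 0.387). The genes most like Cxcl14 across clusters were Tnfsf13b (r 0.96), which encodes the B cell survival factor BAFF, the complement gene C7 (0.94) and Inmt (0.94).

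Cxcl16 was the most widely detected of the 7 genes, and was seldom detected in the lymphoid clusters. Cxcl16 UMIs were present in 528 of 1344 cells (39.3%, 36.7 to 42.0%), and 268 of these cells had 1 UMI. The Mmp12-high cluster was at 3.94 per 10000 (3.50 to 4.41) with 53 of 76 cells, interstitial-macrophage-like cells at 2.91 (2.52 to 3.35) with 69 of 99, and aerocyte-like cells of cluster 1 at 1.54 (1.37 to 1.72) with 193 of 408. The Mmp12-high rate was 3.50 in library 1 and 6.12 in library 2. With 30 components the clusters were redrawn, and the cells then matched to this class were at 0.453, with cluster 3 the highest class. Cluster 3 then held 65 cells with Cxcl2 in place of 49, so these rates are not of the same cells. Adventitial-fibroblast-like cells were at 1.38 (1.12 to 1.67), cluster 11 at 1.29 (0.943 to 1.73) and Acta2-high cells at 0.990 (0.755 to 1.27), so these neighbours in the order overlapped. General-capillary-like cells were at 0.645 (0.507 to 0.810), below cluster 1, the reverse of Cxcl12. That order held in both libraries, with 0.586 (0.441 to 0.762) in cluster 2 and 1.52 (1.32 to 1.74) in cluster 1 of library 1, and 0.916 (0.552 to 1.43) and 1.58 (1.30 to 1.89) in library 2, where the intervals overlapped. Of 262 lymphoid cells 1 had a Cxcl16 UMI, and the 156 cells of both T cell clusters had none (limit on cells with a UMI 1.92%), at a median depth of 3605 UMIs. At 2500 UMIs per cell the expected share was 46.5% in the Mmp12-high cluster, 44.4% in interstitial-macrophage-like cells and 29.6% in cluster 1.

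The receptor gene of Cxcl16 showed the opposite distribution. Cxcr6 was at 9.70 per 10000 (8.56 to 11) in gamma-delta-T-like cells, with 59 of 68 cells, and at 1.46 (1.08 to 1.93) in T-cell-like cells, with 20 of 88, which left 4 of its 83 positive cells in all other clusters. The metalloprotease gene Adam17, which encodes a sheddase, was at 1.04 (0.811 to 1.31) in interstitial-macrophage-like cells, against 0.482 (0.437 to 0.529) in the remaining cells. Of 6 genes tested for shedding and cleavage of CXC ligands, 2 were at least 2-fold higher there (10.8% of all genes tested) and 3 at least 2-fold lower (30.4%). Genes most like Cxcl16 across clusters were the iron regulator gene Hfe (r 0.91), Nav1 (0.88) and Spred1 (0.88), a negative regulator of Ras signalling. Where Cxcl16 and Cxcl12 met in the general-capillary-like cluster, Cxcl16 was in 45 of 124 cells with Cxcl12 and 4 of 21 without, but depths differed, at 7506 and 4241 UMIs, and at 2500 UMIs per cell the expected shares were 13% and 12.2%.

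**Figure D5:**
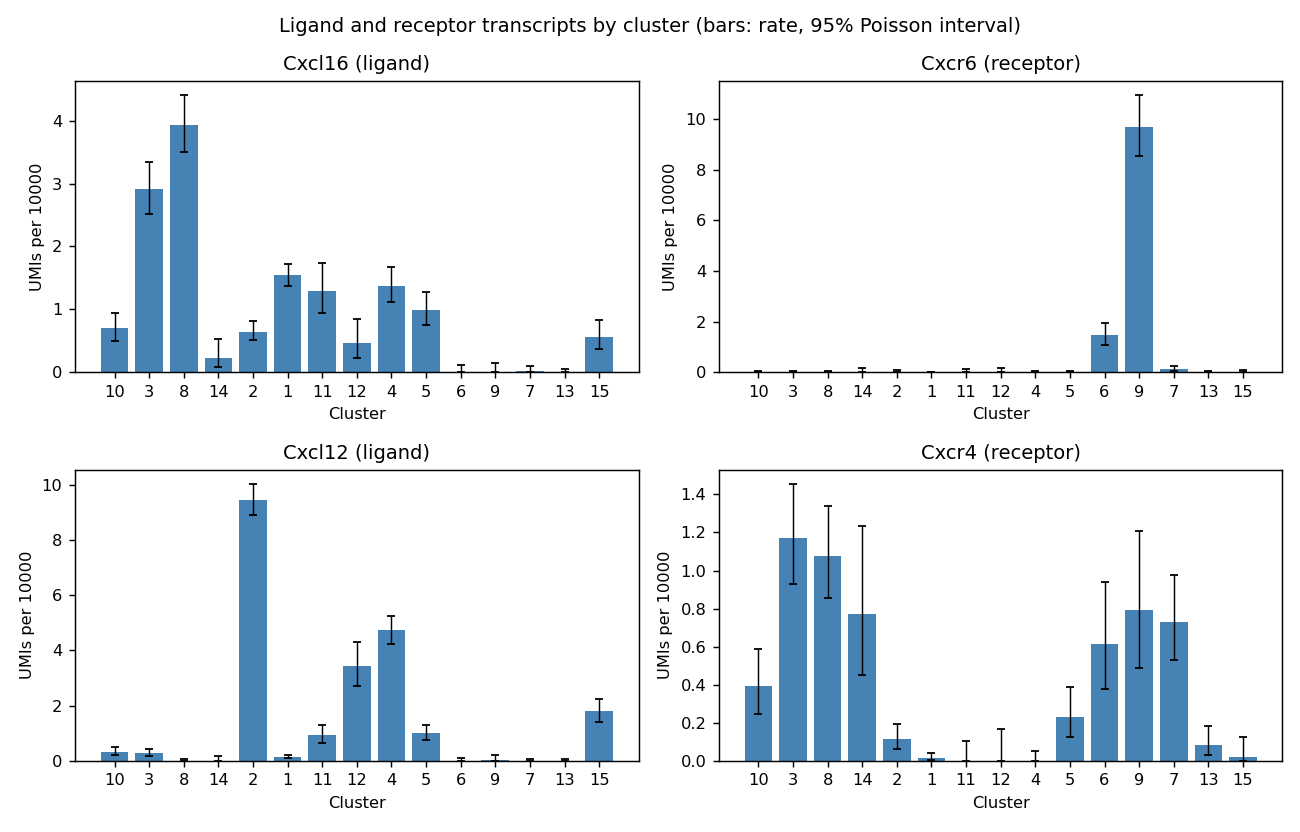
Rates (vertical axes, UMIs per 10000, with 95% Poisson intervals) of the ligands Cxcl16 and Cxcl12 on the left and their receptors Cxcr6 and Cxcr4 on the right in the 15 clusters (horizontal axes). Cxcl16 is at 0 in clusters 6 and 9, where Cxcr6 reaches 1.46 and 9.70, and Cxcl12 is highest in cluster 2, where Cxcr4 is at 0.113.

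Many cells had UMIs of several of the 7 genes. At least 1 of the 7 was detected in 838 of 1344 cells (62.4%), at least 2 in 399 (29.7%) and at least 3 in 185 (13.8%). At least 2 were found in 91.9% of interstitial-macrophage-like, 90.6% of serous-cavity-macrophage-like, 84% of fibroblast-like and 69.1% of adventitial-fibroblast-like cells, against 3.92% of aerocyte-like cells of cluster 1. In between were Acta2-high cells at 48.4%, the Mmp12-high cluster at 44.7%, general-capillary-like cells at 38.6%, cluster 11 at 25.5% and alveolar-macrophage-like cells at 20%. Median depths differed, at 10754 UMIs in cluster 10, 6736 in cluster 3, 7345 in cluster 2 and 4841.5 in cluster 1. At least 3 were found in 40 of 53 serous-cavity-macrophage-like cells, and 1 of these cells had all 7. Cells were also divided by Cdkn2a, the gene of the reporter's locus. In aerocyte-like cells of cluster 1, Cxcl16 was in 126 of 247 cells with a Cdkn2a UMI (51.0%, 44.6 to 57.4%) and 67 of 161 without (41.6%, 33.9 to 49.6%), at depths of 5205 and 4562 UMIs. These intervals overlapped. In this way 9 pairs of a gene and a cluster were set out, and their rates differed in both directions. How many of all genes differ between cells with and without Cdkn2a was not computed, so the values are not particular to these genes. The intervals cover counting error only. Cxcl2 was at 39.4 per 10000 (37.3 to 41.6) in the 28 serous-cavity-macrophage-like cells with Cdkn2a, against 65.9 (62.8 to 69.1) in the 25 without, and at 12.95 (11.2 to 14.9) in the 20 interstitial-macrophage-like cells with Cdkn2a, against 26.9 (25.6 to 28.4) in the 79 without, or 7.75 against 24.6 without the highest cell of each set. In the Mmp12-high cluster it was at 53.8 (49.2 to 58.7) in the 9 cells with Cdkn2a, against 13.5 (12.6 to 14.4) in the 67 without, and at 24.6 against 8.03 without the highest cell of each set. All 9 of those cells came from library 1, while Cxcl2 was at 41.8 in the cells of library 2, none of which had Cdkn2a. Cxcl1 in serous-cavity-macrophage-like cells was at 4.84 (4.12 to 5.65) with Cdkn2a, against 7.71 (6.67 to 8.86) without. Cxcl12 in general-capillary-like cells was at 7.06 (6.37 to 7.81) with Cdkn2a, against 11.6 (10.8 to 12.5) without, at depths of 9879 and 5019 UMIs. Without the highest cell of each set these values were 6.38 and 9.27. Pf4 in serous-cavity-macrophage-like cells was at 17.9 (16.5 to 19.4) with Cdkn2a, against 14.2 (12.8 to 15.7) without. Shares of cells with a UMI had the opposite order for Cxcl2 in clusters 10 and 3, Cxcl12 and Pf4. Cxcl2 was in 82.1% of cells with and 76% without Cdkn2a in cluster 10, and in 55% and 48.1% in cluster 3. Cxcl12 was in 90% and 83.2%, and Pf4 in 78.6% and 92%. For Cxcl1 in cluster 10 and Cxcl2 in cluster 8 the shares followed the rates. The intervals of each pair of shares overlapped.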

How the data were processed

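Per the labels' protocols, mCherry-positive lung cells were sorted and made into 10x Genomics single-cell libraries with version 3 chemistry of the 3' kit. Cell Ranger 3.0.2 and mm10 are named in the submitters' processing notes. The authors deposited 1 table of natural log (ln) values, and the values show that each cell's UMIs had been divided by its total, multiplied by 10000, raised by 1 and logged. Back-transformed values were whole multiples of each cell's smallest one, and deviated from them by at most 1.78e-10, which gave whole UMIs back. Every listed gene was present in at least 3 cells. No column of cells was left unused.

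Clustering used scanpy 1.11.5 on 2000 variable genes after 55 chemokine, receptor and reporter genes had been left out, with 20 components, 15 neighbours and Leiden resolution 0.5. Clusters were named from marker lists and leading genes. No doublet caller was run. Markers of several lineages met in 45 cells (3.35%), 12 of them in cluster 15. Named genes followed a rule: the 7 genes, the 3 most similar genes of each, CXC ligands and receptors, and up to 4 examples of each pathway list by the largest fold. Examples chosen outside that rule, after their values were seen, were Nfkbia, Tnfaip3, Tnf, Atf3 and Fos in cells with and without Cxcl2, and Gja4 and Sox17. The members, lists and rules were chosen with earlier results of these data known. The table is 1 sample, so no test across samples was run; rates and shares carry exact 95% intervals, and 3 counts were taken as the limit for a count of 0. On simulated Poisson counts only the call of genes set apart and the Poisson interval were tried. The simulation had no spread between cells beyond counting, so it does not cover genes whose UMIs came from few cells. Alternatives were another resolution, 30 components, chemokine genes kept, classes by marker share, several cell filters, each library alone, other averages and a 3-fold limit. Leaving out the highest cell of each class in the ranking, the arterial and platelet marker splits, the comparison by Cxcl2 and the values per library of pathway genes were added after seeing the data. The letters of both motifs were shortened by 1 base after their matches had been seen.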

Additional observations from a re-analysis of the deposited data

How the results depend on the processing

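The number of genes set apart in 1 class, 4 of 7, was 2 (Cxcl14 and Pf4) when cells with markers of several lineages were left out and 1 (Pf4) at a 3-fold limit, where 6.35% of all genes passed. In the other alternatives that rank classes it was 3 or 4, although not always the same genes: Cxcl12 was not among them for means of natural-log values, means over cells and without the highest cell of each class, Cxcl2 not at resolution 1.0 or by marker share, Cxcl14 not with chemokine genes kept, and Pf4 not with 30 components. The highest class was the same for 5 to 7 of the 7 genes, the exceptions being Cxcl10, Cxcl14 and Cxcl16. The share of cells with 2 or more of the genes, 29.7%, was 22.6% in library 2 alone, 33.1% among cells with at least 1500 genes and 17.8% with 2500 UMIs drawn from each cell. Of 65 recomputed rates 45 stayed within the counting interval. Some of these 45 were identical to the main value, so they are not independent checks. Cxcl2 in cluster 10, for example, was at 50.9 at resolution 1.0, with 30 components and with at least 1500 genes. Of the 65, 7 moved by over 1.5 times. Those were Cxcl10 in cluster 8 (0.453 with 30 components, 1.59 in library 2, 0.964 without 1 cell), Cxcl16 in cluster 8 (0.453 with 30 components, 6.12 in library 2), Cxcl12 in cluster 2 (4.39 in library 2) and Pf4 in cluster 3 (29.1 with 30 components). With 30 components 79.7% of cells kept their class, so the rates given for it are of partly other cells. The cause of the moves was not tested. Library 2 alone had 2 classes of at least 20 cells and gave no ranking. No paired analysis was possible because the samples form 1 group and cell names could not be tied to samples. Classes of 20 to 25 cells and rates under 0.1 per 10000 rest on few UMIs.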

Other observations

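Other CXC ligands were found in fewer classes. Cxcl13, a B cell attractant, was in 77 of 1344 cells, with 17 of 53 serous-cavity-macrophage-like cells at 19.8 per 10000 (18.7 to 21) and 50 of 99 interstitial-macrophage-like cells at 13.1 (12.2 to 14). Its receptor gene Cxcr5 was in 34 of 82 B-cell-like cells at 0.893 (0.671 to 1.17). Cxcl9, a Cxcr3 ligand, was in 9 of 20 alveolar-macrophage-like cells and in 3 cells elsewhere. Cxcl15 and Cxcl17 were in 12 and 10 of the 17 Scgb1a1-high cells and in 1 other cell each. Cxcl5 was in 7 cells and Cxcl3 in 6.

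Receptors for the neutrophil attractants were nearly absent, with 7 Cxcr2 UMIs in 7 cells. Cx3cl1, a membrane-bound chemokine of another family, was in 155 of 408 aerocyte-like cells at 1.13 (0.989 to 1.28), while its receptor gene Cx3cr1 was at 2.37 (2.02 to 2.76) in interstitial-macrophage-like cells and 1.68 (1.40 to 2.00) in the Mmp12-high cluster. Ackr2, a scavenging receptor chiefly of CC chemokines, was in 310 of 408 aerocyte-like cells at 2.93 (2.70 to 3.18), in cluster 11 at 2.44 (1.95 to 3.02) and in general-capillary-like cells at 1.61 (1.39 to 1.86), while 18 of its 444 positive cells lay in the remaining clusters.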
